A study of Mus musculus with 4 samples.

Results

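The genes described here encode variant histones outside the clustered histone genes, and the chaperones that store or deposit histones in the oocyte. They were taken by gene name: the linker histones H1foo and H1f0, the H3.3 genes H3f3a and H3f3b, the H2A variants H2afz, H2afx and H2afy, the centromeric H3 variant Cenpa, and the chaperones Hira and Npm2. All 10 were found in the expression table, which lists 25587 genes. The clustered, replication-dependent histone genes are not among them.

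Clustered histone genes are transcribed mainly in S phase, and their mRNAs end in a stem-loop in place of a poly(A) tail. Variant histone genes give mostly polyadenylated mRNAs and are transcribed outside S phase as well, so that a cell held in meiotic prophase, such as a growing oocyte, can still exchange histones. Chaperones hold histones in the nucleus and cytoplasm and put them onto DNA, and the egg carries a store of both into fertilisation, where the sperm genome has to be repackaged.

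RNA-Seq was done on mouse oocytes at 4 stages of follicular growth, with 1 library per stage, in a study of how transcription relates to DNA methylation in the female germline. All oocytes were wild-type and came from C57BL/6Babr mice (background strain given as C57BL/6). Non-growing oocytes (NGOs) came from females 5 days post-partum and measured 10 to 40 µm. Growing oocytes formed 2 groups, GO1 from females of 8 to 14 days post-partum with a size of 25 to 70 µm, and GO2 from females of 15 days post-partum with a size of 50 to 70 µm. Fully grown oocytes (FGOs) came from females 20 days post-partum and were larger than 70 µm. Each library was made from pooled oocytes, and total RNA was depleted of ribosomal RNA without selection of poly(A) tails. A dUTP protocol was used for NGO and FGO, and the ScriptSeq v2 kit for GO1 and GO2. NGO to FGO and GO1 to GO2 therefore compare stages within 1 protocol, while from NGO to GO1 and from GO2 to FGO stage and protocol cannot be told apart.

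Values are RPKM, reads scaled to exon length and library total. They correct for gene length, so levels and ratios between genes depend on the length used. The length recovered was the union of all exons for some members (6809 bases for H2afy) and 1 transcript for Npm2 (997 bases). RPKM values are relative to the RNA in a library. A gene with a constant RPKM may thus still have more copies per cell in a larger oocyte. Fewer cells of a type cannot be told apart from less RNA per cell. The totals behind the RPKM values ranged from 110595217 in NGO to 241385714 in GO2. With 1 library per stage there was no replicate check and no test between stages. Intervals are 95 % intervals and cover counting error only, since no molecular identifiers were used and several reads can stem from 1 molecule. A read may also have been counted more than once, so the intervals may be too narrow. Changes are log2 ratios of RPKM + 0.1, centred by a trimmed mean over all genes tested, and a gene was called higher or lower when it passed 2-fold. All 10 oocyte markers examined (such as Zp3, a zona pellucida gene, and Gdf9, an oocyte growth factor) had at least 0.5 RPKM in every library. Their summed levels ran from 3919 RPKM in GO2 to 6288 RPKM in NGO. Zp3 had 1772 RPKM in NGO and 615.9 to 819.8 RPKM in the other libraries, while Bmp15 was lowest in NGO, at 131.1 RPKM. The growth state of the oocytes in each pool was not tested. All 10 granulosa cell markers were above 0 in every library and 2 to 4 of them reached 0.5 RPKM. Their summed levels were 2.606 to 11.28 RPKM, the highest in FGO, where Cyp19a1 alone had 6.077 RPKM. Foxl2, Fst and Amhr2 were lower in FGO than in NGO, and the other granulosa cell markers were higher. Of 6 stromal markers, 3 reached 0.5 RPKM in NGO, where the list summed to 5.509 RPKM, and none did in the other libraries, where it summed to at most 0.2451 RPKM. The stromal marker Lum was listed at 0 outside NGO. The 3 endothelial markers summed to between 1.811 RPKM in NGO and 9.806 RPKM in FGO, nearly all of it Pecam1, while Cdh5 was at 0 in GO2 and FGO. The 3 blood markers listed summed to at most 1.547 RPKM, in NGO.

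The levels of the 10 genes spanned from 1.171 RPKM (H2afy in FGO) to 899 RPKM (H1foo in FGO). H1foo and Npm2 were among the 25 most abundant of all genes in each library, H3f3a and H3f3b came next among the 10, and H2afy and Hira had the lowest levels. Counted against all genes above 0 RPKM, 5 of the 10 genes lay in the top 10 % in NGO and in FGO (H1foo, Npm2, H3f3a, H3f3b and H2afx). In GO1 and GO2 the number was 4, without H2afx.

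**Figure D1:**
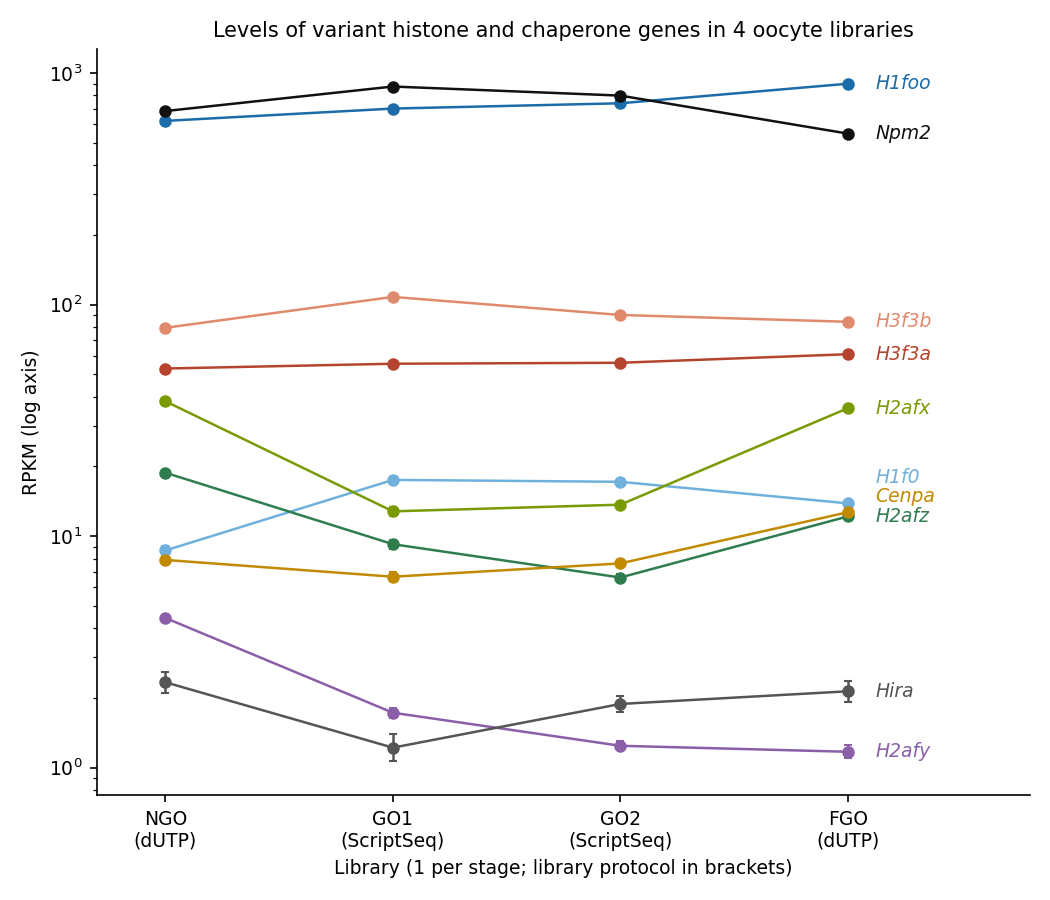
RPKM (log axis) of the 10 genes in the 4 libraries, with 1 point per library, the library protocol in brackets and bars for the 95 % Poisson interval of the count. H1foo and Npm2 lie at 547.5 RPKM or more in every library, H2afx is high in both dUTP libraries and low in both ScriptSeq libraries, and H2afy is lowest in FGO at 1.171 RPKM.

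H1foo encodes the oocyte linker histone, a member of the H1 family that is found in oocytes and early embryos and that is replaced by somatic H1 during cleavage. The gene lies on chromosome 6 from 115944938 to 115950236 on the plus strand (GRCm38). It was listed at 621.2 RPKM in NGO, 702.1 RPKM in GO1, 740 RPKM in GO2 and 899 RPKM in FGO. The level was thus highest in FGO, and H1foo ranked 21st, 15th, 13th and 9th among all genes in the order of these libraries. From NGO to FGO its log2 change was 0.59 (0.58 to 0.61), within 2-fold, and 76.06 % of the genes tested had a smaller or more negative change. From GO1 to GO2 it was 0.05 (0.04 to 0.06).

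H1foo had no near copy among other annotated transcripts at 97 % identity over at least 100 bases, so its reads are not shared in that way. The sequence before its start is shown because this gene has the highest level of the group in FGO and because its promoter holds few CpG dinucleotides. RefSeq lists the gene as H1f8, and its promoter window (300 bases, most of them before the start; GRCm38.p6, chr6:115944681-115944980, plus strand) reads as follows, 5′ to 3′, with capitals at CCAAT boxes on either strand.
H1foo promoter: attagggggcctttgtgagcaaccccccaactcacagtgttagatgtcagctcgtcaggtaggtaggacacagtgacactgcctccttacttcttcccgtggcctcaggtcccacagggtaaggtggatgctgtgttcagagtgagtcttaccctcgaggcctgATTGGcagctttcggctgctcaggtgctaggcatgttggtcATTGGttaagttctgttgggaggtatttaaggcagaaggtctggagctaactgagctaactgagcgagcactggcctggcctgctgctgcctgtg
This window had a GC content of 54.7 % and 5 CpG dinucleotides, the lowest CpG count of the 8 members with a promoter entry in RefSeq, against 10 for Cenpa and 24 to 39 for the other 6. Promoters of H2afx and Npm2 are not shown. The window held 2 matches to CCAAT (a box found in 37.4 % of 32851 mouse promoters of this length) and no match to TATAAA (13.6 %) or to GGGCGG, the GC box (35.7 %), on either strand. It held 1 match to CANNTG, the E-box (72.3 %), which is not in capitals, and no match to TAATTG or TAATTA, the element of the oocyte factor NOBOX (12.4 %). A match is a string of letters and not a binding site.

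H1f0 encodes H1.0, a linker histone of cells that have stopped dividing. This gene of 1 exon lies on chromosome 15 from 79028212 to 79030498 on the plus strand. Its level was 8.67 RPKM in NGO, 17.49 RPKM in GO1, 17.16 RPKM in GO2 and 13.85 RPKM in FGO. Both ScriptSeq libraries were higher than both dUTP libraries. Within 1 protocol the log2 change was 0.73 (0.65 to 0.81) from NGO to FGO and -0.05 (-0.10 to -0.003) from GO1 to GO2. The RPKM ratio of H1foo to H1f0, chosen after the values were seen as were the other ratios given here, was 71.65 in NGO, 40.14 in GO1, 43.13 in GO2 and 64.9 in FGO. In each of the 4 libraries the oocyte linker histone thus had at least 40 times the RPKM of H1f0.

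H3f3a and H3f3b encode the same H3.3 protein, the H3 variant that is put into chromatin outside S phase. H3f3a lies on chromosome 1 from 180800832 to 180813943 on the minus strand, and H3f3b on chromosome 11 from 116021912 to 116027962 on the minus strand. H3f3a was listed at 52.93 RPKM in NGO, 55.52 RPKM in GO1, 56.05 RPKM in GO2 and 61.03 RPKM in FGO. H3f3b was listed at 79.37 RPKM in NGO, 107.9 RPKM in GO1, 90.18 RPKM in GO2 and 84.24 RPKM in FGO. H3f3b was the higher of the pair in every library, by a ratio of 1.499 in NGO, 1.943 in GO1, 1.609 in GO2 and 1.38 in FGO.

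Both H3.3 genes stayed within 2-fold in each of the 4 pairs. From NGO to FGO the log2 change was 0.27 (0.24 to 0.29) for H3f3a and 0.15 (0.12 to 0.17) for H3f3b. From GO1 to GO2 it was -0.01 (-0.03 to 0.01) for H3f3a, where the counting interval includes no change, and -0.28 (-0.30 to -0.27) for H3f3b. Across protocols, the value from NGO to GO1 was 0.23 (0.20 to 0.25) for H3f3a and 0.60 (0.58 to 0.62) for H3f3b, and from GO2 to FGO it was 0.005 (-0.02 to 0.03) and -0.22 (-0.24 to -0.20).

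The coding sequences of the pair are shown because the 1 protein they encode could let reads be assigned to the wrong gene. The first 120 coding bases of each (GENCODE M21), with the 24 bases that differ in capitals, are these.
H3f3a coding: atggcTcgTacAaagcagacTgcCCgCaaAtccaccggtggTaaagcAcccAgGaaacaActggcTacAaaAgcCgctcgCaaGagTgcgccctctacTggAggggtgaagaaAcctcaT
H3f3b coding: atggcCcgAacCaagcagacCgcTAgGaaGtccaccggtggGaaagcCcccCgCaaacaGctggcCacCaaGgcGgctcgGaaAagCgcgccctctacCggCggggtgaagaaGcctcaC
Over all 411 coding bases, 95 differed (76.9 % identity), the longest shared run was 23 bases, and none of 312 windows of 100 bases was identical. Close copies of each gene exist elsewhere in the genome. At 97 % identity over at least 100 bases, H3f3a matched transcripts of 18 other genes, 16 of them processed pseudogenes, and H3f3b matched 3, of which 2 were processed pseudogenes. None of these is listed with the RNA-Seq values. The reads were mapped with 1 alignment kept per read, so a read that fits a gene and its copy equally well may have been placed at either, and the H3f3a level is uncertain by the reads such copies could take or give. A listed gene on the opposite strand, Gm16067, overlaps H3f3a by 168 bases and had at most 0.057 RPKM.

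The promoters of the pair are shown beside each other because the same protein is made from both. The windows are chr1:180813556-180813855 and chr11:116024455-116024754 of GRCm38.p6, from RefSeq, both on the minus strand and both inside the span listed for the gene in the expression table, with capitals at CCAAT boxes, TATA boxes (TATAAA) and GC boxes (GGGCGG) on either strand.
H3f3a promoter: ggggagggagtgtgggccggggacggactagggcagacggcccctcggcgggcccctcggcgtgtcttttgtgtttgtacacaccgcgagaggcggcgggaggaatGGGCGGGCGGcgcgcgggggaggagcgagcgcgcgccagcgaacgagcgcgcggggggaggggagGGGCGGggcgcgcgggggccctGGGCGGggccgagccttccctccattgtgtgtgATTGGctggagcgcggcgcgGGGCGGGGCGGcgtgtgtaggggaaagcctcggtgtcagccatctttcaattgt
H3f3b promoter: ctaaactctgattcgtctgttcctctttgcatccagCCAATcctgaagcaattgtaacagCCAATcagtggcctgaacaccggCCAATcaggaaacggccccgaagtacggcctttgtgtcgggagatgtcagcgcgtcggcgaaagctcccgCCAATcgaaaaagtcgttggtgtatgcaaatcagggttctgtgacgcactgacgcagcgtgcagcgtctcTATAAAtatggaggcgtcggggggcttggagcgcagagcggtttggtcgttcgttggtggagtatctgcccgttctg
The H3f3a window had a GC content of 74.0 % with 39 CpG dinucleotides, 6 GC boxes (some of which overlap), 1 CCAAT box and no TATAAA. The H3f3b window had a GC content of 55.0 % with 24 CpG dinucleotides, 4 CCAAT boxes, 1 TATAAA and no GC box. These are descriptions of the windows and were not tested against the levels.

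The 3 H2A variant genes had the largest ratios of highest to lowest RPKM over the 4 libraries among the 10 genes. H2afy encodes macroH2A1, an H2A with a large globular domain that is abundant on the inactive X chromosome and in other repressed chromatin of somatic cells. It lies on chromosome 13 from 56073619 to 56136361 on the minus strand. Its level was 4.43 RPKM (4.281 to 4.583) in NGO, 1.727 RPKM (1.64 to 1.817) in GO1, 1.243 RPKM (1.19 to 1.298) in GO2 and 1.171 RPKM (1.098 to 1.248) in FGO. NGO was higher than each later library, and the GO2 and FGO intervals overlap. H2afy was 3.417-fold lower in FGO than in NGO (log2 change -1.77, -1.88 to -1.67). It was the only member called in that pair, as 1 of 10 members lower and 0 of 10 higher, against 12.1 % of the 11852 genes tested called lower and 14.2 % called higher. A share of 1 in 10 is near that background. Among the genes tested, 3.164 % had a more negative change than H2afy. From GO1 to GO2 its log2 change was -0.47 (-0.57 to -0.37), within 2-fold.

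The NGO library, where H2afy was highest, was also the library with the stromal markers given above: Col1a1, a fibrillar collagen gene, had 2.243 RPKM there and at most 0.01911 RPKM in the other libraries. The part of somatic RNA in the H2afy level was not tested. Against H2afy2, which encodes macroH2A2, the RPKM ratio of H2afy was 4.633 in NGO, 1.825 in GO1, 1.773 in GO2 and 1.424 in FGO. H2afy2 itself had 0.9562 RPKM in NGO and 0.8225 RPKM in FGO, with a log2 change of -0.14.

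H2afz encodes H2A.Z, a variant found at promoters and enhancers and needed for early development. It lies on chromosome 3 from 137864487 to 137866922 on the plus strand. It was listed at 18.78 RPKM in NGO, 9.228 RPKM in GO1, 6.625 RPKM in GO2 and 12.16 RPKM in FGO. Both dUTP libraries were higher than both ScriptSeq libraries, a difference in which stage and protocol cannot be told apart. The level was lowest in GO2 and highest in NGO, with no overlap of the counting intervals, which cover counting error only. Its log2 change was -0.56 (-0.64 to -0.49) from NGO to FGO and -0.50 (-0.58 to -0.41) from GO1 to GO2. Although within 2-fold, the GO1 to GO2 value lay at the 8.139th percentile of all genes tested in that pair, with H2afy next to it at the 9.144th percentile.

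The other H2A.Z gene, H2afv, had 3.078 RPKM in NGO, 2.844 RPKM in GO1, 2.386 RPKM in GO2 and 3.601 RPKM in FGO. H2afz was the higher of the 2 genes in every library, by a ratio of 6.099 in NGO, 3.245 in GO1, 2.776 in GO2 and 3.378 in FGO. Over 387 coding bases the pair differed at 81 (79.1 % identity), and none of 288 windows of 100 bases was identical. H2afz matched transcripts of 5 other genes at 97 % identity, 3 of them processed pseudogenes. The pseudogene Gm8203, which is not listed, matched at 100 % over 387 bases. Reads that fit H2afz and a copy equally well may have been placed at either, so the H2afz level is uncertain by such reads. The matches include a retained-intron transcript of Tmcc1 over 682 bases. Tmcc1 is listed, at 2.807 to 3.695 RPKM.

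H2afx encodes H2A.X, which is phosphorylated at DNA double-strand breaks and on the silenced sex chromosomes of male meiosis. It lies on chromosome 9 from 44334715 to 44336071 on the plus strand. Its level was 38.21 RPKM in NGO, 12.79 RPKM in GO1, 13.67 RPKM in GO2 and 35.66 RPKM in FGO. Both dUTP libraries (NGO and FGO) were high and both ScriptSeq libraries (the growing oocytes) were low, so stage and protocol cannot be told apart in this pattern. Within each protocol the counting interval of the change includes 0. The log2 change was -0.04 (-0.09 to 0.01) from NGO to FGO and 0.07 (-0.003 to 0.15) from GO1 to GO2. Across protocols H2afx was 2.667-fold lower in GO1 than in NGO, and 2.394-fold higher in FGO than in GO2.

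Of the 12128 genes tested over the 4 libraries, 3.55 % were at least 2-fold higher in both dUTP libraries than in both ScriptSeq libraries, and 2.21 % were at least 2-fold lower. H2afx was the 1 member in the first class and no member was in the second. H1f0 and Npm2 came nearest to the second class, with log2 differences between dUTP and ScriptSeq libraries of -1.16 to -0.42 for H1f0 and -0.83 to -0.38 for Npm2. Stage and protocol cannot be told apart in these differences.

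Base composition went with the difference between dUTP and ScriptSeq libraries, in a comparison chosen after the data were seen. Stage and protocol cannot be told apart in it. Genes were split into 5 quintiles by the GC content of their longest GENCODE transcript, which 89.6 % of the 12128 genes had. The median log2 difference of dUTP over ScriptSeq libraries was -0.49 in the quintile with the lowest GC content (28.1 to 43.6 %), then -0.28, -0.06 and 0.28, and 0.60 in the quintile with the highest (55.1 to 72.8 %). H2afx has 62.3 % GC and a mean log2 difference of 1.33, at the 84th percentile of its quintile. H2afz has 48.4 % GC and a difference of 0.80, at percentile 91.1 of its quintile. H1f0 has 52.1 % GC and a difference of -0.80, at the 6.35th percentile of its quintile, and Npm2, with 52.4 % GC, lay at the 10.4th percentile with -0.60. The 2 H3.3 genes had the lowest GC content of the 10 genes, at 43.2 % for H3f3a and 43.4 % for H3f3b, with differences of -0.12 and -0.42.

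**Figure D2:**
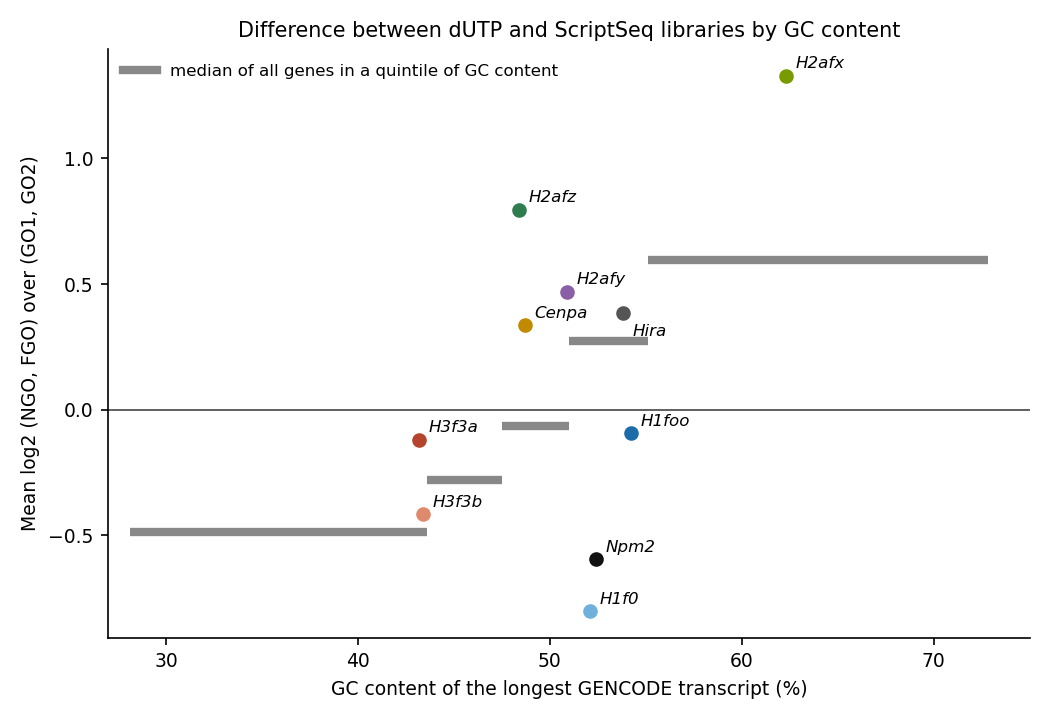
Mean log2 difference of the dUTP libraries (NGO, FGO) over the ScriptSeq libraries (GO1, GO2) against the GC content of the longest transcript in percent, with 1 point per member and grey bars for the median of all genes in each quintile of GC content. The grey bars climb from -0.49 to 0.60, H2afx lies highest at 1.33, and H1f0, Npm2 and H1foo lie below the bar of their quintile.

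With the median of its GC quintile subtracted, the log2 change of H2afx was -0.59 from NGO to GO1 and 0.76 from GO2 to FGO, so that neither passed 2-fold, and from NGO to FGO it was 0.10. Under the same setting H1f0 was at 1.57 and H2afy at -1.17 from NGO to GO1. The subtraction also moved values within 1 protocol: from GO1 to GO2, H3f3a went from -0.01 to 0.18 and H2afx from 0.07 to -0.08.

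Cenpa encodes CENP-A, the H3 variant that marks centromeres, and lies on chromosome 5 from 30666777 to 30674827 on the plus strand. Its level was 7.89 RPKM in NGO, 6.677 RPKM in GO1, 7.622 RPKM in GO2 and 12.68 RPKM in FGO. The first 3 libraries were close to each other and FGO was the highest. The log2 change was 0.74 (0.66 to 0.82) from NGO to FGO, at the 80.34th percentile of the genes tested, and 0.16 (0.09 to 0.24) from GO1 to GO2. Transcripts of 7 other genes, all of them listed, matched Cenpa transcripts over 108 to 141 bases. Their levels ran up to 94.27 RPKM (Ypel5 in GO1), and the share of Cenpa reads that could come from them was not measured. Hjurp, the chaperone that deposits CENP-A, was at 60.56 RPKM in NGO, 43.77 RPKM in GO1, 53.12 RPKM in GO2 and 66.67 RPKM in FGO. The chaperone mRNA thus had 5.256 to 7.676 times the RPKM of its histone in each library.

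Hira encodes a subunit of the complex that deposits H3.3 independently of replication, and lies on chromosome 16 from 18877037 to 18970309 on the plus strand. Its level was 2.337 RPKM (2.104 to 2.589) in NGO, 1.22 RPKM (1.064 to 1.392) in GO1, 1.884 RPKM (1.741 to 2.035) in GO2 and 2.137 RPKM (1.923 to 2.369) in FGO. GO1 was the lowest, and the intervals of NGO and FGO overlap. The log2 change was -0.06 (-0.28 to 0.15) from NGO to FGO and 0.56 (0.34 to 0.79) from GO1 to GO2, where it lay at the 91.71st percentile of the genes tested. Hira had the fewest recovered counts of the 10 genes (219 in GO1), and its intervals may be too wide because its exon length had to be inferred. A listed gene on the same strand, Gm15797, lies within Hira and had at most 0.08852 RPKM. A transcript of Gm28539, which is not listed, matched Hira over 2416 bases at 100 % identity, so reads from it cannot be told apart from those of Hira there. H1f0, H2afx and H2afy matched transcripts of 1, 4 and 1 other genes, none of them listed, at 97 % identity over at least 100 bases.

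Npm2 encodes nucleoplasmin 2, a chaperone of the egg that is needed for the organisation of nuclei after fertilisation, and lies on chromosome 14 from 70647302 to 70653084 on the minus strand. Its level was 685 RPKM in NGO, 874.2 RPKM in GO1, 798.8 RPKM in GO2 and 547.5 RPKM in FGO. It ranked 19th, 11th, 10th and 25th in these libraries and had no near copy. The level was lowest in FGO: the log2 change was -0.26 (-0.28 to -0.25) from NGO to FGO and -0.16 (-0.17 to -0.14) from GO1 to GO2, both within 2-fold. Npm2 had more RPKM than H1foo in NGO, GO1 and GO2 and less in FGO, where the ratio of H1foo to Npm2 was 1.642 against 0.8032 to 0.9264 before. Npm1, the ubiquitous relative of Npm2, had 114.8 RPKM in NGO, 227.2 RPKM in GO1, 174 RPKM in GO2 and 94.77 RPKM in FGO. Npm2 thus had 3.847 to 5.965 times the RPKM of Npm1.

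The genes whose profiles over the 4 libraries were most like that of H1foo, among 4543 genes with at least 10 RPKM in a library, were Matr3, Slc30a5 and Ip6k2, with root mean square differences of 0.0188, 0.0218 and 0.0219 on the centred log2 scale. Matr3 had 49.34 RPKM in NGO, 55.19 RPKM in GO1, 58.49 RPKM in GO2 and 73.15 RPKM in FGO. For Npm2 the nearest were Rpl35, Psmg4 and Dnajb11, with 0.0234, 0.0254 and 0.0364. Psmg4 had 20.24 RPKM in NGO, 25.91 RPKM in GO1, 23.66 RPKM in GO2 and 16.85 RPKM in FGO. With 4 libraries such likeness is a description.

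All 10 genes passed the filter of 0.5 RPKM in at least 1 library of each pair. From NGO to FGO their median log2 change was 0.05, against -0.001 over all genes tested. From GO1 to GO2 no member was called, against 2.34 % of 11144 genes called higher and 0.915 % called lower, and the median was -0.03, against 0.001. From NGO to GO1, 1 member was called higher (H1f0, 2.236-fold, log2 change 1.16) and 2 lower (H2afx and H2afy), against 14.1 % and 17.5 % of 11535 genes. H2afy was 2.224-fold lower in that pair. From GO2 to FGO, 1 member was called higher (H2afx) and none lower, against 8.11 % and 5.19 % of 11510 genes. These numbers are near the background of each pair.

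The scaling moved the latter pairs most. Centring shifted the log2 changes by 0.16 upwards from NGO to GO1 and by 0.12 downwards from GO2 to FGO. Without it, 10.8 % of genes were called higher and 21.3 % lower from NGO to GO1, and 10.5 % higher and 3.96 % lower from GO2 to FGO. Without it H2afz also passed 2-fold from NGO to GO1, with a log2 change of -1.02, where the main value was -0.86.

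**Figure D3:**
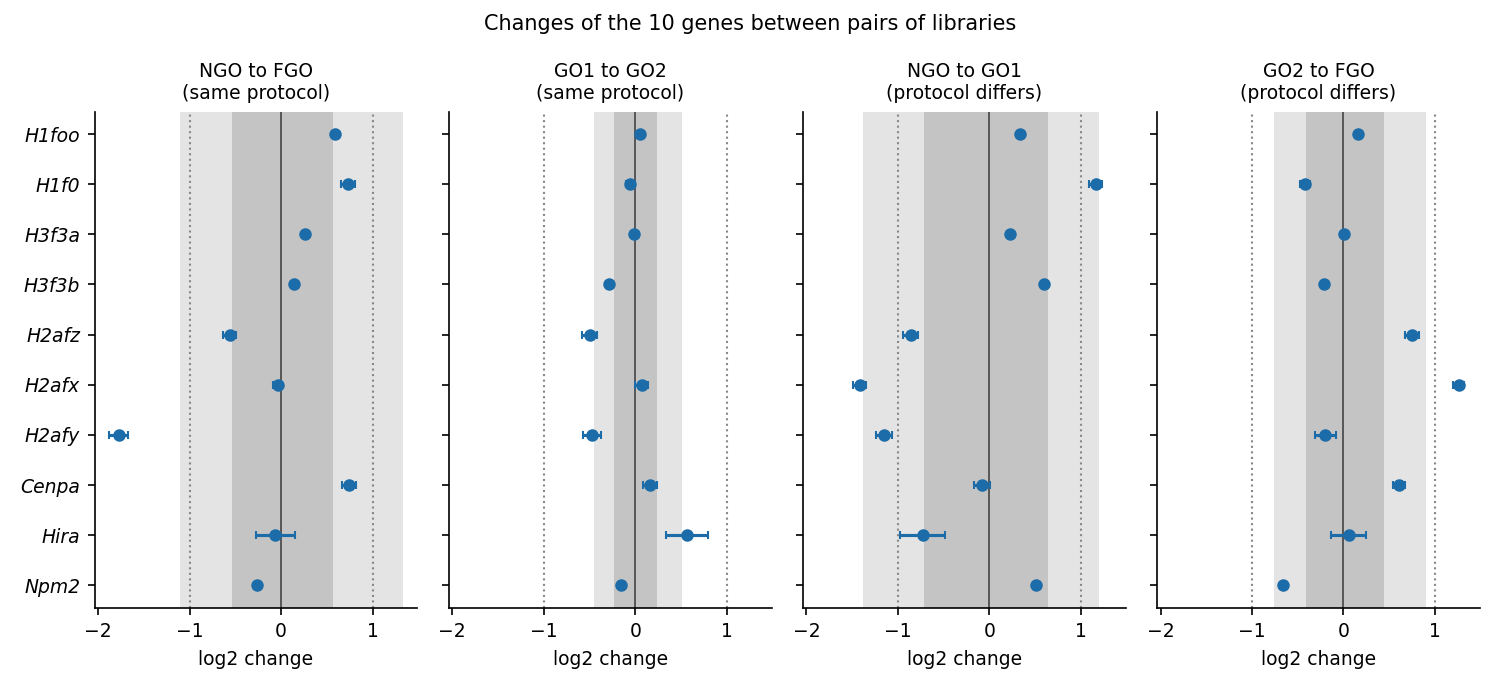
Log2 change of each member in the 4 pairs of libraries, with bars for the 95 % counting interval, dotted lines at 2-fold, and shading from the 25th to the 75th (dark) and from the 10th to the 90th percentile (light) of all genes tested. From NGO to FGO only H2afy passes a dotted line, at -1.77, and from GO1 to GO2 none does, with a narrower shading.

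Genes that work with these histones were taken from 5 lists and are described next by role, with changes within 1 protocol first. The counts called in each list are read against the shares over all genes tested. These were 14.2 % higher and 12.1 % lower from NGO to FGO, and 2.34 % and 0.915 % from GO1 to GO2. They were 14.1 % and 17.5 % from NGO to GO1, and 8.11 % and 5.19 % from GO2 to FGO. In lists this short the counts are descriptions and were not tested. The first list held 8 other variant histone genes outside the clusters, of which 7 were listed and 4 (H2afv, H2afj, H2afy2 and H1fx) passed the filter. None of the 4 was called from NGO to FGO or from GO1 to GO2, and the median log2 change from NGO to FGO was 0.31. H1fx, a linker histone gene, had 2.318 RPKM in NGO and 3.601 RPKM in FGO (log2 change 0.67). H2afj had 5.949 RPKM in NGO, 1.675 RPKM in GO1, 1.943 RPKM in GO2 and 7.206 RPKM in FGO, high in both dUTP libraries as H2afx was. It was called lower from NGO to GO1 (log2 change -1.61) and higher from GO2 to FGO (1.72). H1fnt and H2afb1, known from the testis, were listed at 0 in all 4 libraries, and Hils1, a linker histone gene of spermatids, had at most 0.06301 RPKM.

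Of 7 genes of H3.3 deposition, 1 was called higher and 0 lower from NGO to FGO, with a median log2 change of 0.42, and 0 were called from GO1 to GO2. Ubn1, a HIRA complex subunit, was called higher, with 10.61 RPKM in NGO, 11 RPKM in GO1, 14.16 RPKM in GO2 and 21.84 RPKM in FGO (log2 change 1.10). Its RPKM was 4.541 times that of Hira in NGO and 10.22 times in FGO. Asf1a, which hands H3 and H4 to HIRA, had the highest level of the list in GO2, at 42.16 RPKM, with 30.3 RPKM in NGO, 43.46 RPKM in GO1 and 38.84 RPKM in FGO. Daxx, which deposits H3.3 together with ATRX at repeats, had 7.067 RPKM in NGO and 10.71 RPKM in FGO (log2 change 0.65). Across protocols, 2 genes of the list (Atrx and Ubn2) were called higher and 1 (Asf1b) lower from NGO to GO1, and Atrx and Ubn2 were called lower from GO2 to FGO. Atrx was at 16.54 RPKM in NGO, 52.29 RPKM in GO1, 40.69 RPKM in GO2 and 21.24 RPKM in FGO, low in both dUTP libraries.

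Of 10 other chaperones of H3 and H4, 1 was called lower and 0 higher from NGO to FGO, with a median log2 change of 0.19, and 0 were called from GO1 to GO2. Ipo4, an importin that carries histones into the nucleus, was the gene called, with 9.042 RPKM in NGO, 1.727 RPKM in GO1, 1.692 RPKM in GO2 and 2.51 RPKM in FGO (log2 change -1.75). Rbbp7 had the highest level in GO2, with 124.1 RPKM in NGO, 175.9 RPKM in GO1, 149 RPKM in GO2 and 168.6 RPKM in FGO. Dnajc9, a histone chaperone with a J domain, had 14.39 RPKM in NGO and 26.48 RPKM in FGO (log2 change 0.94), just within 2-fold. Across protocols, Nasp was called higher (log2 change 1.12) and Ipo4 lower (-2.17) from NGO to GO1, and no gene of the list was called from GO2 to FGO.

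Of 13 chaperones of H2A and H2B and genes of H2A.Z exchange, 2 were called lower and 0 higher from NGO to FGO, with a median log2 change of -0.31. Set had 21.08 RPKM in NGO, 14.94 RPKM in GO1, 9.762 RPKM in GO2 and 5.377 RPKM in FGO (log2 change -1.89), lower at each later stage. Npm3, a nucleoplasmin relative of the nucleolus, had 14.96 RPKM in NGO, 5.242 RPKM in GO1, 3.476 RPKM in GO2 and 5.077 RPKM in FGO (log2 change -1.48). From GO1 to GO2 the 1 gene called was Srcap, the ATPase of a complex that exchanges H2A.Z. It was lower, at 8.8 RPKM in GO1 and 4.402 RPKM in GO2 (log2 change -1.01), just past 2-fold. Centring lowered log2 changes by 0.025 in that pair, and genes of the lists were not examined under other settings. Across protocols, 3 genes of the list (Npm1, Anp32e and Srcap) were called higher and 2 (Npm3 and Znhit1) lower from NGO to GO1, and none was called from GO2 to FGO.

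Of 7 genes of CENP-A deposition and the centromere, 1 was called higher and 1 lower from NGO to FGO, with a median log2 change of 0.11, and 0 were called from GO1 to GO2. Cenpb, which binds a centromeric repeat, had 0.5514 RPKM in NGO, 0.2231 RPKM in GO1, 0.5555 RPKM in GO2 and 3.519 RPKM in FGO (log2 change 2.54), and FGO was the 1 library that stood high. Oip5, which prepares centromeres to receive CENP-A, had 6.937 RPKM in NGO, 3.052 RPKM in GO1, 2.234 RPKM in GO2 and 2.666 RPKM in FGO (log2 change -1.29). Across protocols, 1 gene of the list was called higher and 1 (Oip5) lower from NGO to GO1, and Cenpb was called higher from GO2 to FGO (log2 change 2.35).

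**Figure D4:**
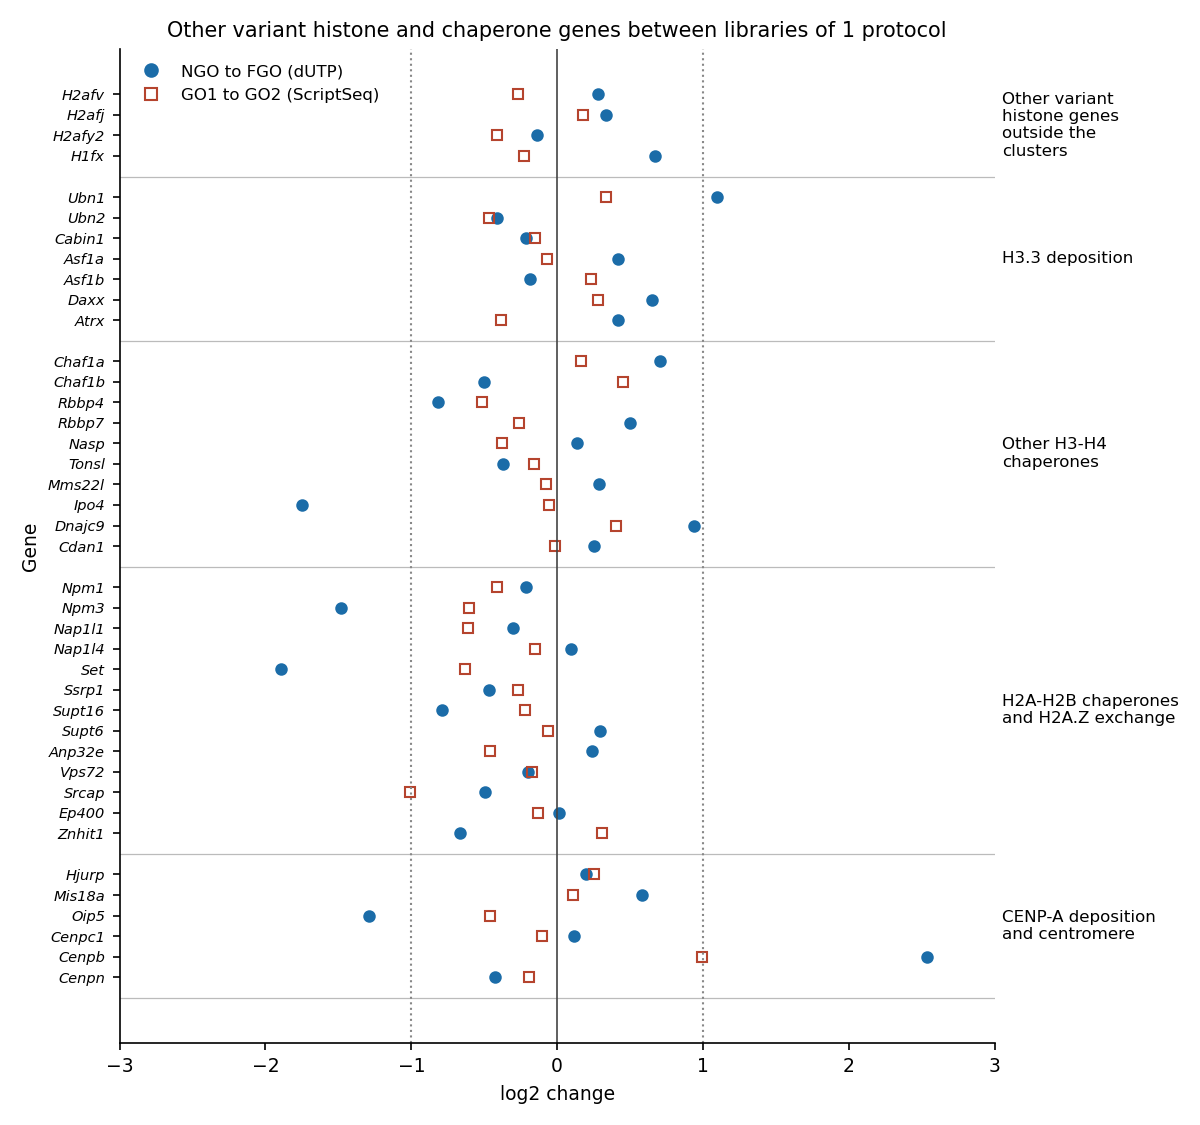
Log2 change of genes of the 5 lists that passed the filter (all but 1), from NGO to FGO (filled circles, dUTP) and from GO1 to GO2 (open squares, ScriptSeq), with dotted lines at 2-fold. From NGO to FGO, Ubn1 and Cenpb lie above 2-fold and Ipo4, Npm3, Set and Oip5 below it, and from GO1 to GO2 Srcap lies at -1.01.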

How the data were processed

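The authors sequenced RNA of pooled oocytes, 1 library per stage. Per the labels, reads were trimmed with Trim Galore 0.2.8 and mapped to GRCm38 with TopHat2 2.0.9. The authors deposited RPKM on a linear scale. At mapping, 1 alignment was kept per read. The libraries were strand-specific, but the program, annotation and strand setting behind the RPKM values are not given in the sources used here. Columns were matched to samples by name, and the number of columns left without a sample was 0.

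The 10 members and the lists were chosen with earlier results of these data known. The genes named are the members and, from each of 5 lists, the gene with the highest RPKM in GO2 and the 2 with the largest change from NGO to FGO, plus the 3 genes with the nearest profiles to H1foo and Npm2. Other genes called in a pair and H2afy2 were named after their values were seen. Supt16h, Supt6h and 2610039C10Rik were matched through RefSeq synonyms, H2afb3 and Hbb-bs were not analysed here, 1 gene of the lists is counted but not reported by name, and of 2 rows for Srcap the one with the longer span was used.

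Log2 ratios of RPKM + 0.1 were centred by a trimmed mean (30 % of ratios and 5 % of levels trimmed from each end) over genes with at least 0.5 RPKM in at least 1 library of a pair. Library totals were fitted so that RPKM times length was a whole count (within 0.06) for genes of 1 exon, which held for 99.43 to 99.71 % of their values. Counts were recovered with these totals for Poisson intervals of levels and binomial intervals of changes. For Hira and Cenpa the exon length was the smallest one that gives whole counts. The totals exceed both the mapped and the raw reads that the paper gives for each library. A read or pair was thus probably counted more than once, and intervals would then be too narrow. The calculation was run on simulated data with counting error only and planted changes larger than 2-fold. Those data held no difference between protocols, so they do not bear on protocol or on calls near 2-fold. Python 3.11.15, numpy 2.4.6, pandas 2.3.3, scipy 1.17.1, matplotlib 3.10.9 and, for near copies in GENCODE M21 transcripts, blastn 2.17.0 were used. Promoters were taken from RefSeq (GRCm38.p6). Alternatives were other scalings, pseudocounts, filters, ranking rules, recovered counts, a 4-fold threshold and, chosen after seeing the data, subtraction of GC quintile medians.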

Additional observations from a re-analysis of the deposited data

How the results depend on the processing

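With a 4-fold threshold, 0 members were called from NGO to FGO, 0 from NGO to GO1 and 0 from GO2 to FGO, against 1, 3 and 1 at 2-fold. Of all genes tested, 5.67 % were then called higher and 2.24 % lower from NGO to FGO, 2.7 % and 3.68 % from NGO to GO1, and 0.799 % and 1.29 % from GO2 to FGO, so 0 of 10 is near the background. With the median of each GC quintile subtracted, 0 were called from GO2 to FGO, against 5.55 % of all genes higher and 4.53 % lower, and 2 from NGO to GO1, against 12.5 % and 11.7 %. From NGO to GO1, 4 members were called without centring, against 10.8 % of all genes called higher and 21.3 % lower. With a pseudocount of 1 RPKM, 2 members were called, against 8.94 % and 9.26 %, and H2afy was at -0.84. The 5 called changes kept their sign in all 40 of their alternative values. Each was past 2-fold, and no setting shifted a log2 change by more than 0.821. The sign therefore says little about the calls, some of which were lost as given above. Of 280 alternative values for the 35 changes within 2-fold, 2 had the opposite sign under planned settings, both of H3f3a from GO1 to GO2 (main value -0.01), and 9 under GC subtraction. The latter were H3f3a from NGO to GO1 (0.23 to -0.37) and from GO1 to GO2 (-0.01 to 0.18), H3f3b from GO2 to FGO (-0.22 to 0.13), H1foo from GO1 to GO2 (0.05 to -0.05) and from GO2 to FGO (0.16 to -0.04), H2afx from NGO to FGO (-0.04 to 0.10) and from GO1 to GO2 (0.07 to -0.08), and Hira from NGO to FGO (-0.06 to 0.02) and from GO2 to FGO (0.06 to -0.14). The largest planned shift was that of H2afy from NGO to FGO, from -1.77 to -1.26 with a pseudocount of 1 RPKM. Members in the top 10 % of levels numbered 4 to 6 in any ranking. Among the 10 members, Hira had the fewest recovered counts (219 in GO1) and the widest counting intervals. Both rest on the smallest exon length that gives whole counts, so the counts may be too low and the intervals too wide. No paired analysis was possible because each stage has 1 library, and for the same reason no library could be left out.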
